A study of Mus musculus with 56 samples.

Results

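Genes that set the hair follicle stem cells of mouse back skin apart from the other keratinocytes were described in 32 of the 56 RNA-seq libraries of a survey of the follicle stem cell niche at postnatal day 22. Both stem cell pools, the bulge stem cells (BuSC) and the hair germ stem cells (HGSC), were compared with both other keratinocyte populations, the cells labelled as upper hair follicle (Foll) and the epidermal cells (Epi). A gene was a member when all 4 differences, BuSC or HGSC minus Foll or Epi, had the same sign, the smallest was at least 1 on the log2(RPKM + 1) scale, and the largest of the 4 limma p-values passed 0.05 after Benjamini-Hochberg adjustment over all genes tested. By this rule 302 genes were higher in both pools (1.81% of the 16731 tested) and 422 were lower in both (2.52%), together 724 genes. RPKM are read counts scaled by gene length and by the total reads of the library, and the log2(RPKM + 1) scale understates the change of genes with low values.

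All animals carried the same 3 reporters, K14-H2BGFP, Crabp1-GFP and Lef1-RFP, on the CD1 background, the first driven by the keratin 14 promoter, and the labels name no treatment. The populations were separated by fluorescence-activated sorting. Each population was taken from 4 zones of the back skin with 2 biological replicates per zone, which gave 8 libraries per population. The other 24 libraries held dermal papilla (DP), dermal fibroblasts (DF) and a negative fraction (Neg). The labels' batch entry is the zone itself, and the influence of batch and zone cannot be told apart. The labels do not say whether the libraries of a replicate number share an animal, and p-values measure the spread between these libraries.

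Hair follicle stem cells sit in the bulge and, below it, in the hair germ next to the dermal papilla, and together they rebuild the lower follicle at each new growth phase. Hedgehog, Wnt and bone morphogenetic protein signals between papilla and epithelium control when they divide. The keratinocytes of the epidermis and the upper follicle instead renew themselves from a basal layer and move upward as they switch to the suprabasal keratins Krt1 and Krt10 and build the cornified barrier.

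The labels could be compared with marker genes, and not all of these followed them. The basal keratin gene Krt5 averaged 3087 RPKM in BuSC, 1484 in HGSC, 3132 in Foll and 5568 in Epi. Cd34, the standard surface marker of the mouse bulge, averaged 62.7 RPKM in BuSC and 0.368 in HGSC. Whether Cd34 was itself used in the sort is not known, since the labels give no gates beyond the reporters. Krt15, another bulge marker, was no lower in Epi than in BuSC (values below). Shh, the hedgehog ligand gene of the germ, averaged 0.492 in BuSC and 43.7 in HGSC. The upper follicle keratin gene Krt79 was highest in Foll at 139 RPKM, against 26.1 to 61.9 in the other 3 populations. The epidermal keratin genes Krt1 and Krt10 averaged 995 and 1991 RPKM in Epi, and also 512 and 1166 in Foll. Of the reporter genes, Krt14 averaged 501 and 415 RPKM in the stem cell pools and 1118 and 1769.8 in Foll and Epi, Crabp1 was high in BuSC (414) and near 0 in HGSC (0.8502), and Lef1 averaged 23.1 and 63.8 in BuSC and HGSC and 14.1 and 5.02 in Foll and Epi. These 3 genes helped to define the sort and are not findings between the populations. The reads behind the values came to 3.24 to 72.8 M per library over the 32 libraries (median 12.4 M). In 4 of the 32, zone 1, 3 and 4 replicate 2 of Foll and zone 3 replicate 2 of Epi, the most similar other library belonged to a different keratinocyte population, and without these 4 the rule gave 317 higher and 347 lower genes.

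The pooled contrast, the mean of the 2 stem cell pools minus the mean of Foll and Epi, called 1364 genes higher (8.15%) and 951 lower (5.68%). Of these 2315 genes 31.3% were members, and the other 1591 missed the rule in at least 1 of the 4 comparisons. Cd34 and Shh are examples of genes high in 1 pool and low in the other. The smallest of the 4 differences had a median of 1.26 over the 302 higher genes and -1.57 over the 422 lower genes, and it reached 2 in size in 10 and 127 genes. The comparison population nearer to the stem cells was Foll for 274 of the 302 and for 332 of the 422. All 16 stem cell libraries lay above all 16 others in 29 of the higher genes (9.60%, against 0.185% of all genes tested) and below all others in 140 of the lower genes (33.2%, against 0.944%). Since the rule used these libraries, the shares describe the members and are not tests. Across all genes tested the median pooled difference was 0.10.

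**Figure D1:**
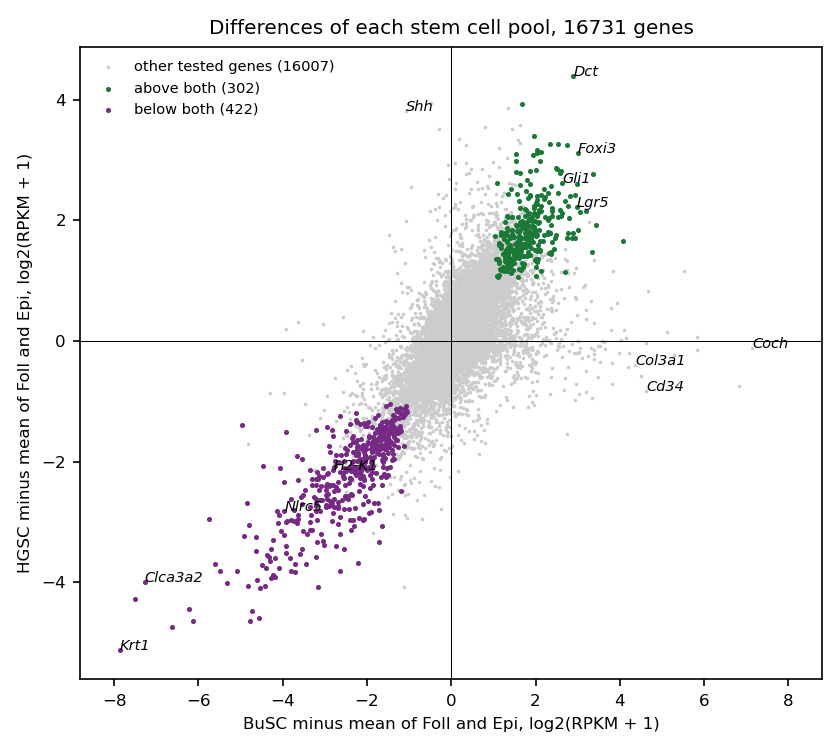
Difference of BuSC (horizontal axis) and of HGSC (vertical axis) from the mean of Foll and Epi, log2(RPKM + 1), with 1 point per tested gene and the members in green (302 above both) and purple (422 below both). Krt1 lies at the far lower left, Foxi3, Gli1, Lgr5 and Dct lie at the upper right, and Cd34, Col3a1 and Shh lie off the diagonal, high in 1 pool only.

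Ranked by the smallest difference among genes with the same sign in all 32 pairs of libraries of 1 zone and number and at least 10 RPKM in the higher populations, the genes higher in both pools were led by Foxi3, a forkhead transcription factor required for hair follicle development. In the mm10 annotation it lies at chr6:70956531-70961066. Its libraries ran from 85.4 to 208 RPKM in BuSC (median 132), 94.02 to 258 in HGSC (median 149), 15.4 to 66.4 in Foll (median 24.3) and 2.25 to 45.6 in Epi (median 9.05). Every stem cell library lay above every other library, and the pooled difference was 3.06 (SE 0.28, smallest of the 4 differences 2.22, limma adjusted p = 0.000147). Shisa2, whose product holds back maturation of Fgf and Wnt receptors in Xenopus, ran from 59.8 to 109 RPKM in BuSC (median 77.2), 39.4 to 68.4 in HGSC (median 51.6), 5.198 to 21.8 in Foll (median 12.9) and 0.3297 to 11.4 in Epi (median 3.97), again with no overlap between the stem cell and the other libraries (smallest difference 2.08, limma adjusted p = 7.53e-06). The same separation held for Mfap2, a protein of elastic microfibrils, with 30.7 to 58.9 RPKM in BuSC (median 39.1), 34.8 to 74.9 in HGSC (median 58.3), 0.817 to 30.1 in Foll (median 9.75) and 0.0863 to 13.9 in Epi (median 2.41). Gli2, Golm2 and Prrg3 were separated likewise. In the other 9 of the 15 leading genes the ranges overlapped.

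Fbln1, an extracellular matrix fibulin, ran from 25.6 to 54.2 RPKM in BuSC (median 39.3), 34.8 to 52.9 in HGSC (median 45.1), 2.27 to 28.6 in Foll (median 8.23) and 0.468 to 13.2 in Epi (median 2.86). Its highest Foll library passed its lowest BuSC library, so the ranges overlapped, and the smallest difference was 1.97 (limma adjusted p = 1.81e-06). The sulfotransferase genes Chst11 and Chst2, which modify chondroitin and other glycans, averaged 13.95 and 13.8 RPKM in BuSC and 12.7 and 12.5 in HGSC, against 3.21 and 3.32 in Foll and 2.29 and 1.59 in Epi. The remaining leading genes were the hedgehog factor gene Gli1 (smallest difference 1.90), the PDZ domain ubiquitin ligase gene Pdzrn3 (2.17), Armcx2 (2.10), the fatty acid desaturase gene Fads2 (1.87), the neuroligin gene Nlgn2 (1.85) and the galactose mutarotase gene Galm (1.84). Over the 15 leading genes the smallest difference ran from 1.75 to 2.22 and the limma adjusted p from 6.12e-07 to 0.000398. None of the 15 passed the test between BuSC and HGSC. With the libraries of replicate 2 left out of every group, which leaves 1 library per zone and a model of population plus zone, 11 of the 15 no longer passed.

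**Figure D2:**
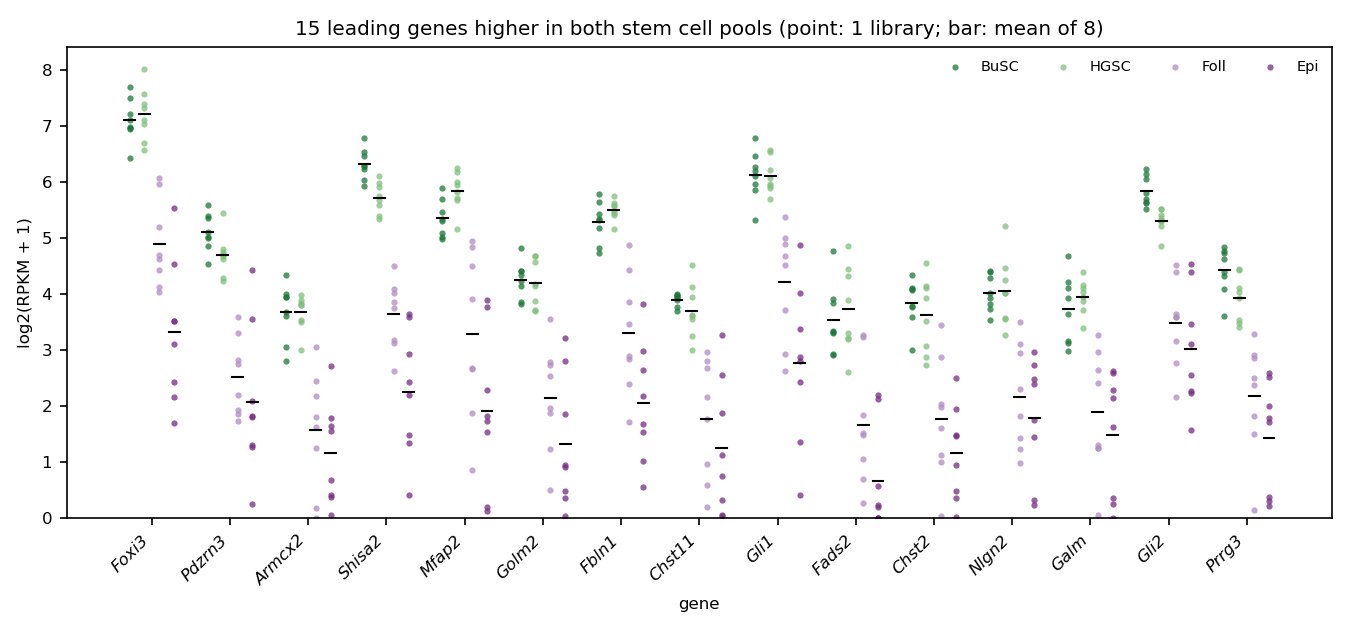
Expression of the 15 leading higher genes in log2(RPKM + 1), with 1 point per library (8 per population) and a bar at each mean. Foll means lie between the stem cell means and the Epi mean for all 15, as for Foxi3 with a Foll median of 24.3 RPKM and an Epi median of 9.05.

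Transcription factors known from follicle stem cells leaned upward. For this and every list below, the shares over all genes tested were 1.81% higher and 2.52% lower by the rule. In the pooled contrast they were 8.15% and 5.68%. Of 24 tested, 8 rose in both pools and 0 fell, namely Gli2, Gli3, Lhx2, Msx2, Sox13, Tbx1, Tcf7l1 and Trps1, and the pooled contrast called 14 higher and 1 lower, with a median difference of 1.27 against 0.10 over all genes. Tbx1, a T-box regulator of bulge stem cells, ran from 38.6 to 69.98 RPKM in BuSC (median 52.7), 16.1 to 42.6 in HGSC (median 34.97), 3.51 to 19.7 in Foll (median 8.74) and 0.908 to 17.9 in Epi (median 5.94). The highest Foll library reached 19.7 and the lowest HGSC library 16.1, so these overlapped (smallest difference 1.71, limma adjusted p = 0.00109). Trps1, a zinc finger repressor needed for hair growth, ran from 20.9 to 45.7 RPKM in BuSC (median 24.9), 15.9 to 30.7 in HGSC (median 21.4), 1.99 to 13.7 in Foll (median 7.39) and 0.241 to 5.95 in Epi (median 1.74) with no overlap (smallest difference 1.68, limma adjusted p = 1.27e-06). It was far higher in DP, at 212 RPKM on average.

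Tcf7l1, the repressor that keeps Wnt target genes off in resting follicle stem cells, was low but higher in the pools, with 4.72 to 21.4 RPKM in BuSC (median 14.8), 6.58 to 25.8 in HGSC (median 12.3), 0.617 to 21.6 in Foll (median 3.73) and 0 to 10.6 in Epi (median 3.18). The highest Foll library was above the highest BuSC library, and the smallest difference was 1.61 (limma adjusted p = 6.94e-05). Lhx2, a LIM homeobox factor that maintains bulge stem cells, averaged 193 RPKM in BuSC, 321 in HGSC, 81.9 in Foll and 25.2 in Epi. Sox13 and Msx2 also rose in both pools and were higher in HGSC than in BuSC (BuSC minus HGSC -1.12 and -1.52, limma adjusted p = 0.0157 and 0.000636). Other named regulators of the bulge did not pass in both pools. Sox9 averaged 106 RPKM in BuSC but 22.4 in HGSC, 47.3 in Foll and 19.2 in Epi, and Nfatc1 averaged 22.3, 6.497, 13.1 and 8.81 in the same order. Fitted to the 32 keratinocyte libraries alone, the list gave 5 members.

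Surface and secreted stem cell markers gave 6 members of 36, all higher, and the pooled contrast called 21 higher and 1 lower (median 1.17). Lgr5, the R-spondin receptor of cycling follicle stem cells, at chr10:115450311-115587780, ran from 60.8 to 142 RPKM in BuSC (median 108), 37.1 to 90.4 in HGSC (median 65.1), 5.91 to 49.2 in Foll (median 18.3) and 2.32 to 37.8 in Epi (median 7.81). Only the upper end of Foll and Epi reached into the HGSC range (smallest difference 1.72, limma adjusted p = 0.000247). Npnt, the nephronectin gene of the bulge basement membrane, ran from 76.1 to 132 RPKM in BuSC (median 104), 80.9 to 145 in HGSC (median 104), 16.4 to 44.98 in Foll (median 31.02) and 11.04 to 31.3 in Epi (median 22.5). Its stem cell libraries were all above the others and both pools had the same median (smallest difference 1.67, limma adjusted p = 7.67e-10). Ptn, the growth factor pleiotrophin, was the most abundant of the 6, with 358 to 676 RPKM in BuSC (median 520.1), 300.2 to 529.6 in HGSC (median 349.5), 64.6 to 220.0 in Foll (median 143) and 14.2 to 139 in Epi (median 54.7), and did not overlap either. The Dickkopf family gene Dkk3 was higher in both pools and higher in BuSC than in HGSC (1.23, limma adjusted p = 0.00179), as was the Frizzled receptor gene Fzd2 by 0.98, under the minimum difference of 1. The list as a whole leaned to the bulge. The median difference from Foll was 1.67 in BuSC and 0.18 in HGSC. Of the 36, 18 were called higher in BuSC than in HGSC, against 3.82% of all genes tested, with Cd34 (5.45) and Postn (4.30) the farthest apart. Dermal fibroblast markers summed to a median of 3278 RPKM in BuSC and 227 in HGSC, and Dkk3 averaged 53.5 RPKM in DF. The part of fibroblast RNA in this lean was not tested. The keratin gene Krt15, often used as a bulge marker, averaged 1950.5 RPKM in BuSC and 2270.0 in Epi and was no member.

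Hedgehog pathway genes gave 6 members of 18, all higher, and the pooled contrast called 8 higher and 1 lower (median 0.79). Members included the receptor gene Ptch1, the transcription factor genes Gli1, Gli2 and Gli3, and Kif7, which moves Gli proteins in the cilium. Gli1, whose transcript is a standard readout of the pathway, lies at chr10:127329882-127341974 and ran from 39.2 to 109 RPKM in BuSC (median 70.2), 50.9 to 94.3 in HGSC (median 63.9), 5.15 to 40.6 in Foll (median 23.3) and 0.322 to 28.6 in Epi (median 6.15). Its BuSC and HGSC medians were close to each other, with a pooled difference of 2.63 (SE 0.17, limma adjusted p = 6.87e-07 under the shared rule). Ptch1 ran from 154 to 273 RPKM in BuSC (median 213), 116 to 209 in HGSC (median 149.6), 22.04 to 132 in Foll (median 79.9) and 18.3 to 82.1 in Epi (median 31.7). Its Foll and HGSC ranges overlapped, and the difference between BuSC and HGSC did not pass the test (0.45). The signal transducer Smo averaged 35.8, 38.2, 24.2 and 25.4 RPKM in BuSC, HGSC, Foll and Epi and was no member. The ligand gene Shh and Scube3, a secreted partner, averaged 43.7 and 47.9 RPKM in HGSC but 0.492 and 1.499 in BuSC. The hedgehog binding protein genes Gas1 and Hhip were the reverse, at 53.5 and 7.39 RPKM in BuSC and 6.65 and 0.5597 in HGSC. Gli1 and Ptch1 were also high in DP, at 75.1 and 259.7 RPKM on average.

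Cell cycle genes moved in 1 direction. All 34 listed genes had 4 differences above 0, against 32.7% of all genes tested, and the pooled contrast called 33 higher and 0 lower, with a median of 1.35. The shared rule kept 8, namely Ccna2, Ccnb2, Ccne2, Cdc6, Foxm1, Mcm3, Mcm5 and Top2a. Against Foll the list's median difference was 0.86 for BuSC and 1.11 for HGSC, against 1.69 and 1.89 relative to Epi. Mki67, the proliferation antigen gene, averaged 193 and 225 RPKM in the pools, 98.8 in Foll and 66.3 in Epi and missed the minimum difference in BuSC against Foll (0.97). None of the 34 differed between BuSC and HGSC by the test.

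Among the members, Ccne2, the cyclin that drives entry into DNA synthesis, ran from 5.81 to 26.6 RPKM in BuSC (median 6.38), 5.21 to 11.03 in HGSC (median 6.83), 0.158 to 3.91 in Foll (median 1.75) and 0.393 to 2.98 in Epi (median 1.49), with no overlap (smallest difference 1.68, limma adjusted p = 1.94e-05). Mcm3, a subunit of the replicative helicase, was separated too, with 28.9 to 106 RPKM in BuSC (median 39.8), 28.9 to 62.5 in HGSC (median 50.2), 14.8 to 28.7 in Foll (median 17.1) and 3.98 to 25.1 in Epi (median 14.5). Ccna2 ran from 33.3 to 93.1 RPKM in BuSC (median 50.4), 35.7 to 90.6 in HGSC (median 53.9), 11.95 to 45.9 in Foll (median 15.6) and 2.27 to 20.8 in Epi (median 9.29), and 1 Foll library lay within the stem cell range. The mitotic cyclin gene Ccnb2 was the least even, with 14.4 to 323 RPKM in BuSC (median 31.6), 13.6 to 365 in HGSC (median 40.7), 1.76 to 24.4 in Foll (median 17.01) and 1.11 to 14.9 in Epi (median 7.41). A few stem cell libraries were several times above their medians, and the call (limma adjusted p = 0.0221) was lost when any of 6 libraries was left out, zone 1 and 3 replicate 1 and zone 2 replicate 2 of BuSC and zones 1, 2 and 4 replicate 1 of Foll. The list's count of members fell to 5 without zone 1 replicate 1 of Foll and rose to 13 without zone 1 replicate 2 of Foll.

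The promoters of 2 of these members are shown because most cell cycle promoters carry the CCAAT box, a binding element of the factor NF-Y. The RefSeq promoter table (GRCm38.p6) held 27 of the 34 listed genes, and 23 of them (85.2%) had CCAAT on either strand within the 250 bases before the start, as did 4 of the 5 members with an entry, against 35.6% of 12364 promoters of tested genes. Over all 302 higher genes the share was 35.8% of 232. The box was as common in the antigen presentation list, whose members were lower in both pools, at 12 of 14 promoters (85.7%). Capitals mark CCAAT or its complement ATTGG in the sequences below, given 5′ to 3′ on the gene's strand. The gene Ccnb2 is on the minus strand, and its promoter at chr9:70421555-70421804 has 3 boxes, the nearest 21 bases before the start, and Top2a, the mitotic topoisomerase gene, is on the minus strand with 6 boxes in its promoter at chr11:99024190-99024439.
Ccnb2: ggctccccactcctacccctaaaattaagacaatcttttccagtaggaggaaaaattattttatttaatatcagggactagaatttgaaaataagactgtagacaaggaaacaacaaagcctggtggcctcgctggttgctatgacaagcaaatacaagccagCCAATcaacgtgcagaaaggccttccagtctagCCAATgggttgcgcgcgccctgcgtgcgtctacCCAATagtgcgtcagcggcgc
Top2a: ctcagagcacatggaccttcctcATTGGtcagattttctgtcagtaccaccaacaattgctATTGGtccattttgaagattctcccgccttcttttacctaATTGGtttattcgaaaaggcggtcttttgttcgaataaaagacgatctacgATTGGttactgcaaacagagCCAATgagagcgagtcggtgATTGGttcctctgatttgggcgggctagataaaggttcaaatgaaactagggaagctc
A match describes these letters and is not shown to be a bound site.

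Cell cycle regulators outside that list moved in both directions. Ccnd1, cyclin D1, ran from 97.6 to 258 RPKM in BuSC (median 145), 129 to 172 in HGSC (median 144), 25.8 to 153 in Foll (median 50.3) and 42.1 to 69.02 in Epi (median 48.4) (smallest difference 1.39, limma adjusted p = 6.56e-07), with 1 Foll library inside the stem cell range. Cdkn1a, the p21 inhibitor of cyclin-dependent kinases, was lower in both pools, with 3.71 to 48.8 RPKM in BuSC (median 25.9), 21.4 to 100.0 in HGSC (median 42.8), 81.1 to 280.2 in Foll (median 117) and 159 to 259.9 in Epi (median 214) (smallest difference -1.52, limma adjusted p = 7.25e-05). Of the 19 cyclin D and inhibitor genes tested these were the only 2 members. The hair germ and early anagen list gave 5 members of 16, all higher and all already named (Ccnd1, Gli1, Lgr5, Msx2 and Ptch1), and 8 higher and 1 lower in the pooled contrast.

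Signalling genes of other pathways gave members in both directions, beside 1.81% of all genes tested higher and 2.52% lower. The pooled contrast called 6 Wnt receptor and co-receptor genes higher and 1 lower. It called 1 Wnt or R-spondin ligand gene higher and 6 lower, and 5 Wnt inhibitor genes higher and 0 lower. Among 21 Wnt receptors and co-receptors, Fzd1, Fzd2 and Lgr5 rose in both pools and 0 fell. Fzd1 ran from 26.7 to 65.8 RPKM in BuSC (median 44.6), 22.3 to 38.1 in HGSC (median 28.6), 6.11 to 26.9 in Foll (median 10.8) and 3.13 to 12.7 in Epi (median 8.07). Fzd2 ran from 22.7 to 34.8 RPKM in BuSC (median 25.2), 9.89 to 18.7 in HGSC (median 13.3), 1.89 to 13.8 in Foll (median 4.896) and 0.123 to 7.07 in Epi (median 2.14). For both the stem cell ranges met only the highest Foll libraries. Of 18 Wnt and R-spondin ligands 1 was a member, Wnt3a, lower in the pools at 0 to 0.438 RPKM in BuSC (median 0), 0 to 1.23 in HGSC (median 0.0979), 0.353 to 7.17 in Foll (median 1.13) and 0.965 to 8.34 in Epi (median 4.03). These are low values whose ranges overlapped between HGSC and both Foll and Epi, and between BuSC and Foll. The call was lost without zone 4 replicate 1 of HGSC, zone 2 replicate 2 of Foll or zone 4 replicate 2 of Foll. Wnt3 averaged 28.2 RPKM in Epi, 6.26 in Foll and 6.32 in HGSC and was no member. Dkk3 was the only member among 23 Wnt inhibitors. Sfrp1 averaged 153 RPKM in BuSC and 11.2 in HGSC.

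Of 32 bone morphogenetic protein, TGF-beta and activin ligands and antagonists, Fstl1 and Ltbp1 rose in both pools and Bmp3 and Bmp4 fell. The pooled contrast called 8 of these 32 higher and 2 lower. Of the 28 receptors, Smads and Id genes it called 6 higher and 1 lower. Fstl1, a follistatin-like secreted protein, ran from 37.99 to 139 RPKM in BuSC (median 51.9), 29.1 to 80.5 in HGSC (median 44.4), 13.4 to 31.5 in Foll (median 18.4) and 0.545 to 6.32 in Epi (median 1.48), and only HGSC and Foll overlapped. Its difference from Epi (4.39 for BuSC) was far above that from Foll (1.58). It averaged 435 RPKM in DF and 488 in Neg, above both pools, and the part of fibroblast RNA in its level was not tested. Bmp3 ran from 0 to 1.47 RPKM in BuSC (median 0.0455), 0.197 to 6.79 in HGSC (median 1.08), 2.41 to 13.5 in Foll (median 6.59) and 14.5 to 38.5 in Epi (median 23.2), and was lowest in BuSC. Bmp4 ran from 2.501 to 69.4 RPKM in BuSC (median 6.23), 1.28 to 36.4 in HGSC (median 9.06), 12.03 to 87.9 in Foll (median 28.5) and 3.88 to 86.02 in Epi (median 32.5). All 4 populations overlapped for Bmp4, and its call (limma adjusted p = 0.0213) was lost without any of 8 libraries, zone 1 replicate 1 and zones 3 and 4 replicate 2 of HGSC, zone 4 replicate 2 of BuSC, and replicate 2 of each of the 4 zones of Epi. Among 28 receptors, Smads and Id genes, the inhibitory Smad gene Smad7 rose (1.39), the co-receptor gene Tgfbr3 fell (-1.48), and Id3 rose by 1.03, a call lost without zone 3 replicate 1 of HGSC or without zone 1 replicate 2, zone 2 replicate 1, zone 3 replicate 2 or zone 4 replicate 1 of Foll. Smad7 averaged 12.4 and 15.4 RPKM in the pools against 4.19 and 4.66.

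In the Notch list of 17, the glycosyltransferase gene Lfng rose and the ligand gene Dll1 and the receptor gene Notch3 fell. The pooled contrast called 2 of the 17 higher and 2 lower. Dll1 ran from 0.366 to 2.3001 RPKM in BuSC (median 1.196), 0.614 to 5.63 in HGSC (median 2.69), 7.85 to 30.3 in Foll (median 15.1) and 3.14 to 22.5 in Epi (median 14.4). Its lowest Epi value lay within the HGSC range. Lfng ran from 19.4 to 32.4 RPKM in BuSC (median 26.5), 12.7 to 26.1 in HGSC (median 16.1), 0.334 to 12.7 in Foll (median 6.88) and 1.77 to 12.5 in Epi (median 6.55), so the ranges of HGSC and Foll met at 1 end. Notch3 averaged 1.92 and 3.697 RPKM in the pools and 10.01 and 21.1 in Foll and Epi, and its call was lost without zone 2 replicate 2 of Foll. Of 29 FGF and EGF family genes, Fgfbp1, a carrier of secreted FGFs, and Hbegf, an EGF receptor ligand, fell (-2.09 and -1.45). The receptor gene Fgfr1 rose (1.06), and the pooled contrast called 1 of the 29 higher and 4 lower. Fgfbp1 ran from 3.47 to 21.3 RPKM in BuSC (median 13.6), 5.16 to 53.8 in HGSC (median 18.7), 62.2 to 186 in Foll (median 116) and 66.6 to 93.3 in Epi (median 78.8), without overlap. The Fgfr1 call was lost without zone 2 replicate 2 of HGSC or zone 3 or 4 replicate 2 of Foll. Of 50 semaphorin, ephrin, Slit and netrin genes, the secreted semaphorin genes Sema3d and Sema3f were members, and both fell. That count of 2 in 50 was near the 2.52% of all genes tested that were lower. The pooled contrast called 5 of the 50 higher and 4 lower. Sema3d ran from 0.0591 to 1.95 RPKM in BuSC (median 0.419), 0.219 to 5.59 in HGSC (median 1.13), 9.03 to 31.96 in Foll (median 22.1) and 39.3 to 87.4 in Epi (median 47.4). Sema3f ran from 0.219 to 3.69 RPKM in BuSC (median 0.714), 1.02 to 6.58 in HGSC (median 2.28), 11.4 to 29.8 in Foll (median 15.95) and 24.04 to 52.4 in Epi (median 43.9). For both, every stem cell library lay below every other.

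Basement membrane genes and basal keratinocyte genes gave 4 higher members of 28 and 1 lower, the reporter promoter's gene Krt14. The type IV collagen genes Col4a1 and Col4a2 averaged 30.4 and 26.1 RPKM in BuSC, 32.9 and 25.4 in HGSC, 14.8 and 11.1 in Foll and 6.28 and 4.54 in Epi (smallest differences 1.04 and 1.20). Lama5, a laminin alpha chain, was higher without overlap (1.05), near the minimum difference, and lost its call without zone 1 or zone 4 replicate 2 of BuSC. The hemidesmosome genes Col17a1, Dst and Itga6 were no members, and Itga6 averaged 52.2 and 36.9 RPKM in the pools against 93.003 and 143. In the list of 42 integrins and matrix glycoproteins, fibronectin (Fn1) rose with Fbln1, and Ccn1 and Igfbp2 fell. Fn1 ran from 38.3 to 147 RPKM in BuSC (median 60.1), 76.7 to 152 in HGSC (median 121), 12.3 to 49.5 in Foll (median 22.8) and 5.55 to 18.1 in Epi (median 10.5) and was higher in HGSC than in BuSC by less than the minimum difference (-0.95). It averaged 407 RPKM in DF and 234 in Neg, above both pools, and Fbln1 averaged 45.3 in DF. Dermal fibroblast markers summed to 1718 to 12679 RPKM in BuSC and 88.1 to 418 in HGSC, and their part in these levels was not tested. Ccn1, a secreted matrix protein induced by YAP, ran from 19.97 to 61.1 RPKM in BuSC (median 45.8), 24.4 to 46.03 in HGSC (median 27.05), 69.4 to 193 in Foll (median 164) and 173 to 323 in Epi (median 242), with the pools below all others. The Igfbp2 call (limma adjusted p = 0.0362) was lost without any of 9 libraries, zone 1 and 4 replicate 1, zone 2 replicate 2 and either replicate of zone 3 of HGSC, and zones 1 and 2 replicate 1 and zones 3 and 4 replicate 2 of Epi. Krt17, a keratin of the follicle's outer layers, was the only higher member of 22 follicle and hair keratins, with 169 to 534 RPKM in BuSC (median 289.5), 229 to 299 in HGSC (median 253), 48.2 to 183 in Foll (median 122) and 34.9 to 168 in Epi (median 66.8).

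The genes lower in both pools were led by Krt1, Calm4 and Krt10. In bulk libraries such as these, fewer cells of a type and less RNA per cell cannot be told apart. Krt1 lies at chr15:101845426-101850794 and ran from 0.295 to 12.8 RPKM in BuSC (median 1.26), 3.01 to 49.7 in HGSC (median 16.8), 187 to 1171 in Foll (median 383) and 866 to 1158 in Epi (median 984). Its 16 stem cell libraries were far below the other 16, with a pooled difference of -6.50 (SE 0.32, smallest of the 4 differences -4.51, limma adjusted p = 6.71e-09). Its partner Krt10 ran from 3.37 to 75.2 RPKM in BuSC (median 11.4), 26.7 to 111 in HGSC (median 41.9), 408 to 2340.4 in Foll (median 870.1) and 1360.4 to 2438 in Epi (median 1995). Krt77, another epidermal keratin gene, ran from 0.326 to 67.8 RPKM in BuSC (median 1.29), 11.3 to 95.8 in HGSC (median 37.6), 199.8 to 1101 in Foll (median 530.0) and 693 to 1371 in Epi (median 1057). These 3 keratin genes were lower in BuSC than in HGSC (BuSC minus HGSC -2.74, -1.90 and -3.23), so the germ pool lay between the bulge and the other keratinocytes. Krtdap, a secreted product of early differentiation, ran from 0.132 to 86.7 RPKM in BuSC (median 11.7), 5.06 to 105 in HGSC (median 41.6), 247 to 1434 in Foll (median 463) and 758 to 1449.5 in Epi (median 854). Calm4, a skin calmodulin, ran from 0 to 13.3 RPKM in BuSC (median 5.08), 0.0732 to 22.9 in HGSC (median 7.12), 33.3 to 233 in Foll (median 114) and 87.8 to 220.2 in Epi (median 160.5). All 15 leading lower genes were separated 16 against 16, and all 15 kept their call with either replicate number left out.

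Clca3a2, a chloride channel accessory gene, ran from 0.758 to 11.3 RPKM in BuSC (median 4.03), 19.2 to 175 in HGSC (median 32.8), 256 to 813 in Foll (median 465) and 695 to 1537 in Epi (median 1014), and its neighbour Clca3a1 was lower likewise (-3.51), although reads of such close copies may have been divided between them in counting. Kcnj2, an inward rectifier potassium channel gene, ran from 0.103 to 3.17 RPKM in BuSC (median 0.745), 0.0375 to 2.401 in HGSC (median 0.7696), 7.74 to 29.5 in Foll (median 21.1) and 23.2 to 43.3 in Epi (median 27.01). Both pools were near 1 RPKM for Kcnj2 and BuSC minus HGSC was -0.01. Others were the phosphodiesterase gene Gdpd2 (smallest difference -4.13), Rgcc (-3.78), the protease inhibitor gene Serpinb2 (-3.57), the membrane protease gene Tmprss4 (-3.53), Fam25a (-3.48) and Ankrd35 (-3.38).

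**Figure D3:**
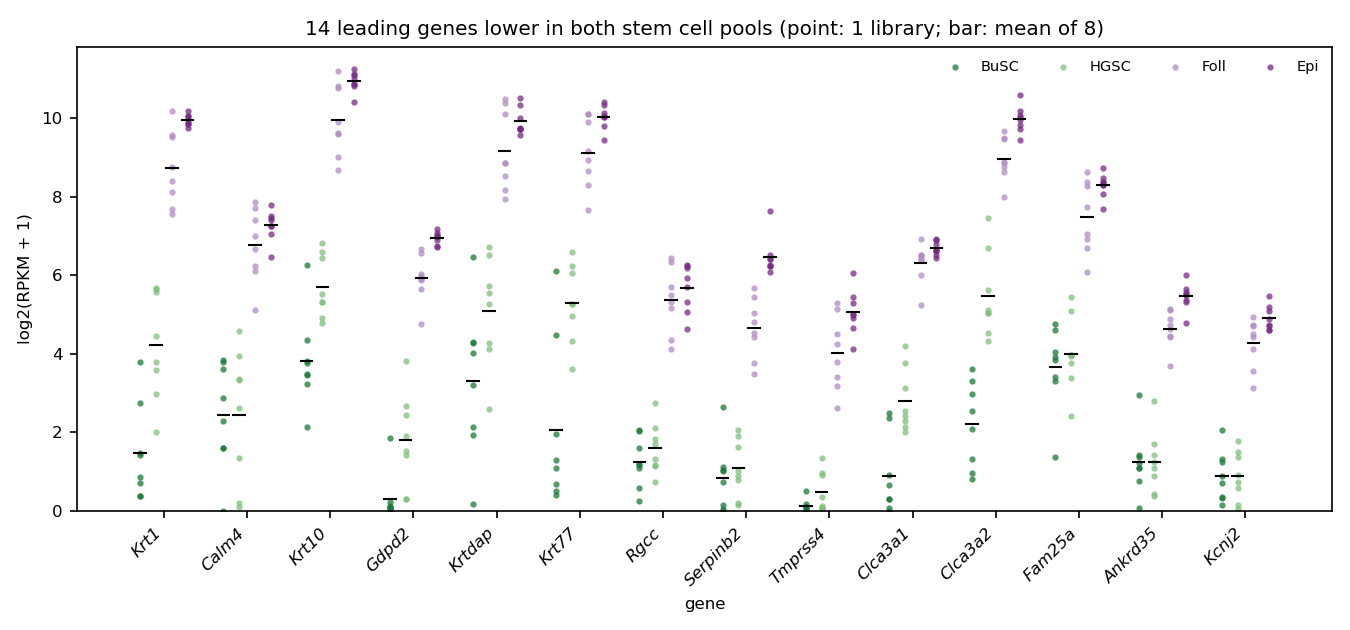
Expression of 14 of the 15 leading lower genes in log2(RPKM + 1), with 1 point per library and a bar at each mean. The green stem cell points lie below the purple ones for all 14 genes, and HGSC sits above BuSC for Krt1, with a median of 16.8 RPKM against 1.26.

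Of 47 epidermal differentiation and cornified envelope genes tested, 22 fell in both pools and 1 rose, and the pooled contrast called 30 lower and 4 higher (median -1.49). The 22 were the keratin genes Krt1, Krt10 and Krt77, the barrier lipid genes Abca12 and Elovl4, the protease genes Casp14, Klk5 and Klk10, the inhibitor genes Spink5 and Serpinb2, the cross-linking enzyme gene Tgm3, the adhesion genes Dsg1a and Ppl, the regulator genes Grhl1, Grhl3 and Notch3, and Calm4, Krtdap, Sbsn, Lypd3, Ly6d and Ly6g6c. Tgm1, a late envelope enzyme gene, averaged 0.258, 0.351, 0.174 and 0.192 RPKM in BuSC, HGSC, Foll and Epi. Tgm5, a transglutaminase gene, went the other way, at 79.6 and 27.1 RPKM in the pools and 11.4 and 8.59 in Foll and Epi (1.77, limma adjusted p = 0.00331). Of the 22 follicle and hair keratins 2 were lower as well, Krt78 (-2.47) and Krt80 (-2.25).

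Some of the lower members lay near each other in the genome. Genes that were no members were not considered and may lie within a run. No share of runs over all genes tested was computed. Runs of at least 3 members with gaps of at most 100 kb numbered 8 for the lower genes and held 28 of the 411 with a position (6.81%), and there were 0 among 291 higher genes. In mm10 coordinates, a run of 6 in the kallikrein cluster (chr7:43695209-43851181) held Klk5, Klk8, Klk9, Klk10, Klk11 and 2310002F09Rik, and a run of 3 on the same chromosome (chr7:30751471-30791097) held Sbsn, Dmkn and Krtdap. Krt1, Krt77 and Krt78 formed a run at chr15:101845426-101954287, and Ifngr1, Il22ra2 and Il20ra, which encode cytokine receptor chains, formed another at chr10:19591949-19760053. A run of 4 (chr4:111875375-112029538) and a run of 3 (chr4:112557194-113286973) held 6 Skint genes, which encode proteins needed for skin gamma delta T cells, and the sugar transporter gene Slc5a9. The others were 3 Serpina3 genes (chr12:104236245-104269372) and H2-T23 with 2 other members (chr17:36029773-36163176). Kallikrein, Skint and Serpina3 genes are close copies, so counts may be shared within a cluster.

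Of 19 antigen presentation genes tested, 8 fell in both pools and 0 rose, and the pooled contrast called 14 lower and 0 higher, with a median of -1.66. All 4 differences were below 0 in 12 of the 19, against 18.8% of all genes tested. The members were the class I heavy chain genes H2-K1, H2-D1, H2-Q4 and H2-T23, the light chain gene B2m, the peptide transporter gene Tap1, the immunoproteasome gene Psmb8 and Nlrc5, the transactivator of class I genes. H2-K1 ran from 16.7 to 53.8 RPKM in BuSC (median 30.3), 34.9 to 70.8 in HGSC (median 41.4), 147 to 285 in Foll (median 210.0) and 82.6 to 429 in Epi (median 238). The 16 stem cell libraries were below all others (smallest difference -2.08, limma adjusted p = 1.17e-08). B2m ran from 189 to 376 RPKM in BuSC (median 276), 218 to 511 in HGSC (median 357), 807 to 1388 in Foll (median 1074) and 786 to 1599.8 in Epi (median 999), separated as well (smallest difference -1.57, limma adjusted p = 2.9e-09). Nlrc5 ran from 0.0138 to 1.93 RPKM in BuSC (median 0.642), 1.09 to 4.77 in HGSC (median 2.96), 10.4 to 31.5 in Foll (median 20.4) and 19.9 to 47.04 in Epi (median 27.2), and it was lower in BuSC than in HGSC (-1.14, limma adjusted p = 0.000427). Reads of the class I heavy chain genes may be divided among near-identical copies.

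Class II genes did not pass in both pools. H2-Aa averaged 3.83 RPKM in BuSC, 40.5 in HGSC, 79.2 in Foll and 38.4 in Epi, and Cd74, the invariant chain, 6.08, 66.2, 93.02 and 43.4. Both are markers of antigen-presenting cells in skin. The 16 immune cell markers summed to 67.0 to 144 RPKM in BuSC, 107 to 172 in HGSC, 59.4 to 223 in Foll and 10.8 to 120.4 in Epi, with 1 member, Kit, which was higher in the pools, and the pan-leukocyte gene Ptprc averaged 0.941, 1.89, 4.47 and 0.227 RPKM. The lymphocyte gene Cd3e averaged 1.103, 3.17, 4.03 and 1.96. The part of immune cells in the class I result was not tested. Of 22 interferon response genes 0 were members by limma, 1 was called lower in the pooled contrast and 10 had an unadjusted p under 0.05. Over all genes tested, 7676 of 16731 had an unadjusted p under 0.05 in that contrast.

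The promoters of H2-K1 and H2-D1 are shown because they hold the same pair of elements known to control class I genes. The Rel element, a site of NF-kappaB family factors whose letters are the first capitals in each sequence, was found in 15 of 12364 promoters of tested genes (0.121%), and 2 of the 7 antigen presentation members with an entry were among them. TGACGC, the core of the X2 box, was found in 9.48% of all promoters and in the same 2 members. Both strands were searched over the 250 bases before the start, and capitals mark the Rel element and TGACGC. H2-K1 lies on the minus strand with its promoter at chr17:34000348-34000597, the Rel element from 111 to 102 bases and the X2 core from 41 to 36 bases before the start. H2-D1 lies on the plus strand with its promoter at chr17:35262844-35263093, the elements from 171 to 162 and from 101 to 96 bases before the start.
H2-K1: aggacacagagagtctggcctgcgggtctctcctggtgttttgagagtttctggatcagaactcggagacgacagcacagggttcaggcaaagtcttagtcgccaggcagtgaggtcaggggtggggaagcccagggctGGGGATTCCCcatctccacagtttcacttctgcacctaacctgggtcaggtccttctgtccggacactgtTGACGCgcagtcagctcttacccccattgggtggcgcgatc
H2-D1: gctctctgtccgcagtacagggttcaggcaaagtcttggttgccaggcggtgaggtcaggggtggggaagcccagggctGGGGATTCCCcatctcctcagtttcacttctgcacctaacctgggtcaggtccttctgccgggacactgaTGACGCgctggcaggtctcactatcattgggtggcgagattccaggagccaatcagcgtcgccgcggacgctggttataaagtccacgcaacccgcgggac
The genes are close copies of each other, so the shared elements are not independent, and no binding was measured in these cells.

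Of 33 chemokine, interleukin 1 family and alarmin genes tested, 6 fell and 0 rose, namely Ccl27a, Il15, Il1r2, Il1rn, Il33 and Il34, and the pooled contrast called 11 lower and 2 higher (median -0.36). Il33, an alarmin stored in epithelial nuclei, ran from 1.94 to 8.49 RPKM in BuSC (median 6.11), 1.72 to 13.8 in HGSC (median 4.54), 20.2 to 70.4 in Foll (median 42.9) and 22.3 to 67.7 in Epi (median 47.4). Il34, the growth factor of Langerhans cells, ran from 0.0961 to 4.03 RPKM in BuSC (median 0.635), 0.402 to 5.16 in HGSC (median 1.41), 5.204 to 39.1 in Foll (median 16.8) and 20.1 to 51.5 in Epi (median 32.01). Ccl27a, a T cell attractant of the skin, ran from 1.88 to 14.5 RPKM in BuSC (median 5.02), 4.51 to 27.2 in HGSC (median 9.01), 31.5 to 74.9 in Foll (median 43.7) and 44.3 to 104 in Epi (median 60.1). For all 3 the stem cell libraries were below every other library. Il1rn, the interleukin 1 receptor antagonist gene, fell as well (smallest difference -3.08, limma adjusted p = 2.46e-10).

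Immediate early and dissociation stress genes gave 6 lower members of 23 (Atf3, Dusp1, Egr1, Fos, Fosb and Klf6) and 0 higher, with a median of -1.11 and 12 called lower in the pooled contrast. Dusp1, a phosphatase that ends MAP kinase signals, ran from 65.9 to 215 RPKM in BuSC (median 127), 57.5 to 123 in HGSC (median 91.7), 259.9 to 551 in Foll (median 425) and 392 to 729.5 in Epi (median 523). Atf3, a stress transcription factor, ran from 12.9 to 33.4 RPKM in BuSC (median 21.02), 23.3 to 59.1 in HGSC (median 37.5), 59.8 to 169.6 in Foll (median 116) and 92.7 to 268 in Epi (median 119.7). Both were separated 16 against 16. Egr1, a growth-induced zinc finger factor, ran from 158 to 404 RPKM in BuSC (median 274), 138 to 361 in HGSC (median 233), 286 to 695 in Foll (median 586) and 543 to 1039.5 in Epi (median 771). Fos, a subunit of the AP-1 factor, ran from 51.05 to 131 RPKM in BuSC (median 81.5), 56.6 to 133 in HGSC (median 103), 97.01 to 254 in Foll (median 223) and 152 to 367 in Epi (median 222). The stem cell libraries of both overlapped with the lowest Foll libraries. The Egr1 call was lost without zone 2, 3 or 4 replicate 2 of BuSC or zone 1 replicate 1 of Foll, and that of Fos without zone 1 or 3 replicate 2 of HGSC or zone 1 or 2 replicate 1 of Foll. The list count was 3 without zone 1 replicate 1 of Foll and 2 with zones averaged within each replicate. The heat shock genes on the list did not follow, with Hspa1a at 58.2, 79.05, 106 and 49.9 RPKM and Hspa8 at 219, 275, 198 and 115. Genes of this list are known to respond to tissue digestion and sorting, and the part of handling in their levels was not tested.

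**Figure D4:**
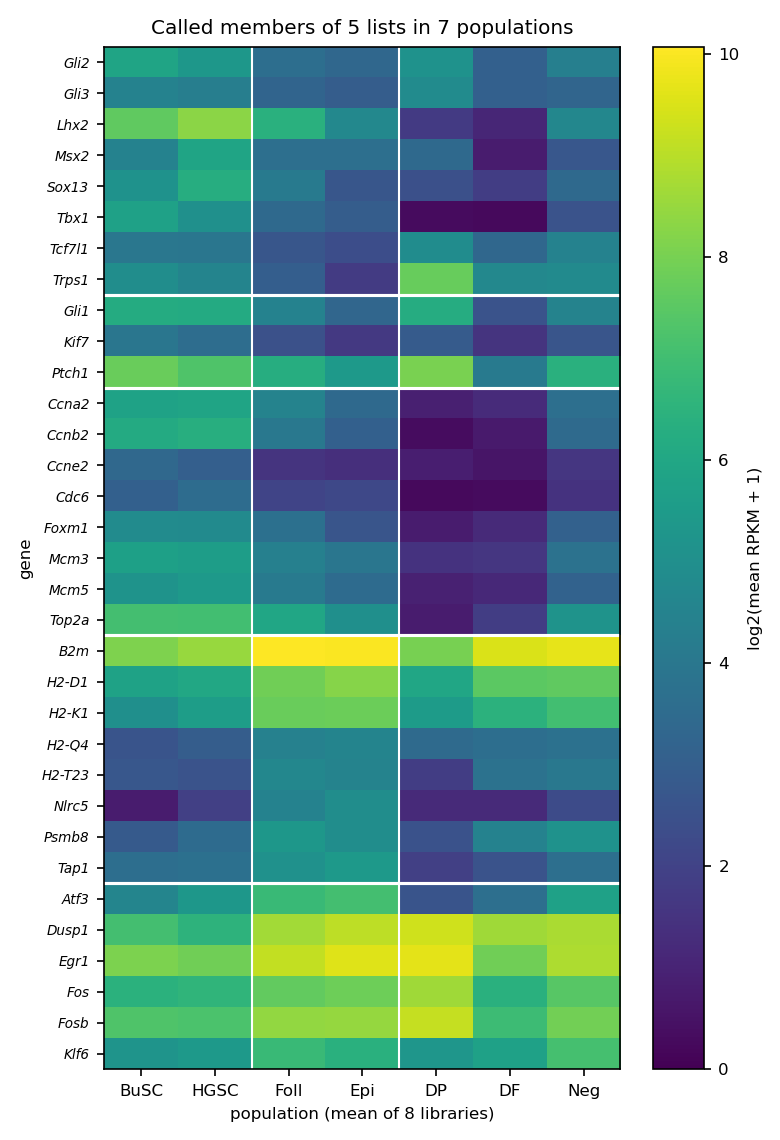
Mean level of members of 5 lists in all 7 populations (8 libraries each), as log2 of the mean RPKM plus 1. From top to bottom the blocks are stem cell transcription factors, further hedgehog genes, cell cycle genes, antigen presentation genes and early response genes, and DP is bright for Trps1 (212 RPKM) and dark for the cell cycle block (Ccnb2 0.262 RPKM).

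Upper follicle and sebaceous genes gave 5 lower members of 25, Acsbg1, Dgat2, Klk8, Mc5r and Pparg, and 0 higher, with 16 called lower in the pooled contrast (median -1.45). Acsbg1, an acyl-CoA synthetase gene, ran from 0.104 to 3.99 RPKM in BuSC (median 2.62), 2.104 to 21.5 in HGSC (median 8.41), 46.4 to 155 in Foll (median 136) and 29.7 to 146 in Epi (median 64.1). Pparg, the lipid cell regulator, averaged 0.4004, 1.01, 22.9 and 4.44 RPKM, and Mc5r, a melanocortin receptor gene of sebocytes, averaged 34.3 in Foll and 5.47 in Epi. The list's median difference from Foll was -2.48 in BuSC and -1.37 in HGSC. Of 34 cadherin, desmosome, claudin and connexin genes, 5 fell and 0 rose. They included Cdh13, Dsg1a, the plakophilin gene Pkp1 and the connexin gene Gjb5. Pkp1 ran from 33.3 to 46.8 RPKM in BuSC (median 42.1), 31.3 to 49.6 in HGSC (median 37.9), 88.8 to 193 in Foll (median 139.5) and 185 to 301 in Epi (median 257), without overlap.

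Of 24 ribosomal protein genes 0 were members by limma and 0 were called in the pooled contrast. An unadjusted p under 0.05 was found for 18 of them, beside 7676 of all 16731 genes tested, and the median difference was 0.28. Of 31 glycolysis genes 1 was a member, the glucose transporter gene Slc2a1, lower with 6.67 to 19.5 RPKM in BuSC (median 16.9), 4.59 to 26.3 in HGSC (median 8.49), 27.3 to 57.3 in Foll (median 42.3) and 37.5 to 87.7 in Epi (median 48.5). That 1 member of 31 was near the 2.52% of all genes tested that were lower. The pooled contrast called 7 glycolysis genes lower and 1 higher (5.68% and 8.15% of all genes tested), with a median of -0.07. Of 28 cholesterol and fatty acid synthesis genes 0 were members by limma, 6 were called lower and 1 higher in the pooled contrast, and 16 had an unadjusted p under 0.05. The pooled difference was below 0 in 25 of the 28 (median -0.27), against 6623 of all 16731 genes tested. Under quantile or median-of-ratios scaling, or without zone 3 replicate 1 of Epi, that list gave 2 lower members.

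**Figure D5:**
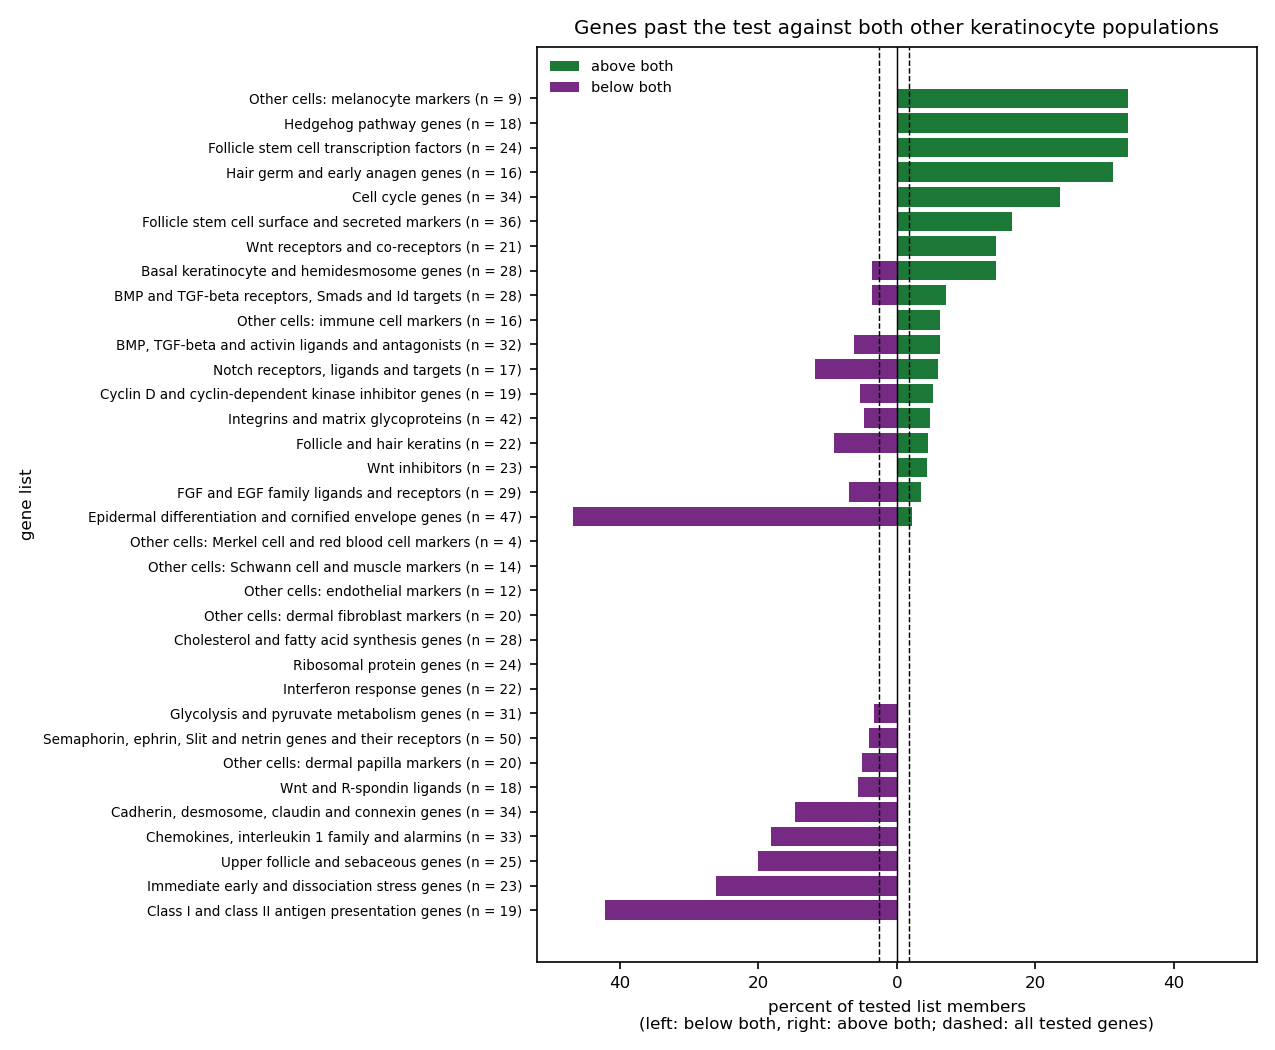
Percent of the tested genes of each list that were higher (green, right) or lower (purple, left) in both stem cell pools, with dashed lines at the share of all genes tested (1.81% higher and 2.52% lower). The purple bars are longest for epidermal differentiation (22 of 47) and antigen presentation (8 of 19), and the green bars for melanocyte markers (3 of 9), hedgehog genes (6 of 18) and stem cell transcription factors (8 of 24).

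Markers of other cell types moved with the contrast in 2 lists. Of 9 melanocyte markers tested, Dct, Tyrp1 and Kit were members, all higher, and the pooled contrast called 7 higher and 0 lower (median 1.62). Dct, a melanin synthesis enzyme gene, ran from 4.64 to 83.2 RPKM in BuSC (median 21.2), 27.97 to 124 in HGSC (median 63.6), 0.679 to 34.02 in Foll (median 2.15) and 0.1599 to 5.69 in Epi (median 0.227), and its smallest difference of 2.25 was the largest among the 302 higher genes, with the same sign in 31 of 32 library pairs. Tyrp1, another pigment enzyme gene, ran from 0.2099 to 6.49 RPKM in BuSC (median 3.599), 2.78 to 24.3 in HGSC (median 9.07), 0 to 3.62 in Foll (median 0.0385) and 0 to 1.64 in Epi (median 0.0352). Kit, the receptor that melanocytes need, ran from 0.906 to 8.99 RPKM in BuSC (median 2.18), 0.987 to 9.93 in HGSC (median 5.34), 0 to 4.096 in Foll (median 0.0456) and 0 to 0.05196 in Epi (median 0.0149). For all 3 the stem cell ranges overlapped with the highest Foll libraries. For Dct and Tyrp1 the BuSC range also overlapped with that of Epi. The 10 listed markers summed to 21.3 to 117 RPKM in BuSC, 46.2 to 197 in HGSC, 1.93 to 72.4 in Foll, 9.59 to 20.9 in Epi and 353 to 648 in Neg. Of the 10, 8 averaged over 1 RPKM in BuSC, 9 in HGSC, 4 in Foll and 3 in Epi, where Mlana, a defining marker, averaged 0.0245 against 8.45 in HGSC. Pmel, another pigment cell gene, averaged 17.7 RPKM in HGSC and 11.4 in Epi. Melanocyte stem cells share the bulge and germ with the follicle stem cells, and the part of such cells in these 3 genes was not tested.

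Dermal fibroblast markers gave 0 members of 20, although the pooled contrast called 13 higher (median 1.19). Their sum was 1718 to 12679 RPKM in BuSC, 88.1 to 418 in HGSC, 229 to 2345 in Foll, 83.2 to 336 in Epi and 61287 to 78429.5 in DF. All 20 averaged over 1 RPKM in BuSC, 12 in HGSC, 16 in Foll and 10 in Epi. Col1a1 averaged 750.4 RPKM in BuSC, 32.7 in HGSC and 155 in Foll. Dermal papilla markers gave 1 member, Bmp4, and endothelial markers 0 of 12, with 0 called in the pooled contrast and 1 at an unadjusted p under 0.05 by limma. The Schwann cell and muscle list (14 tested) and the Merkel and red blood cell list (4 tested) gave 0 members by limma. In them 4 and 3 genes had an unadjusted p under 0.05, beside 7676 of all 16731 genes tested.

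DP, DF and Neg were not used by the rule, although these contrasts share the stem cell libraries with it, so the shares are a description. Of the 302 higher genes, 143 (47.4%) were also at least 1 higher in the mean of the stem cell pools than in each of DP, DF and Neg by limma, against 7.42% of all genes tested, and of the 422 lower genes 26 were. Against DP alone the higher genes split into 191 above and 26 below (14.1% of all genes were above). In 103 of the 302 the mean of DP, DF or Neg exceeded the lower of the stem cell means, in 67 for DP, 53 for DF and 72 for Neg. Mfap2 was such a gene, at 133 RPKM in DF and 86.4 in DP, whereas Foxi3 averaged 0.877 in DP and 0.3502 in DF. Of the other leading higher genes, Pdzrn3, Armcx2, Golm2, Fbln1, Chst11, Gli1, Fads2, Nlgn2 and Prrg3 were also among the 103. Shisa2, Chst2, Galm and Gli2 were not. Without these 103 genes 199 higher members were left. Of the 422 lower members, 102 were higher and 71 lower in the stem cell pools than in DP. No share over all genes tested was computed for genes below DP. None was computed either for means of DP, DF or Neg above the lower stem cell mean.

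The pools also differed from each other in some of the members. BuSC was higher than HGSC by at least 1 in 7 of the 302 higher genes and lower in 13, and in the 422 lower genes it was higher in 6 and lower in 39 (limma adjusted, background 3.82% higher and 2.03% lower). The pooled difference varied among the 4 zones in 2 of the 16731 genes by limma (0.012%), Igfbp3 and Odc1, neither a member, and 1535 genes had an unadjusted p under 0.05. The test called 422 genes zone dependent without the 4 libraries closest to another population. At the edge of the rule, Usp1 (1.0008) was the last higher gene inside and Mtap (0.9992) the first outside, and Rhobtb1 (-1.0013) and Ahnak (-0.9998) were their counterparts among the lower genes.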

How the data were processed

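The authors deposited 1 table of RPKM for 24062 genes in 56 libraries, 2 biological replicates for each of 7 sorted populations in 4 skin zones at postnatal day 22. Per the labels' protocols, RNA of integrity number 8.8 or more was amplified from 6 ng with the NuGEN Ovation V2 kit, and 100 ng of cDNA entered each library, so low values carry amplification error. The submitters' processing notes name STAR 2.4.0, featureCounts, limma, edgeR, DESeq2 and mm10, without their roles. Strand use in counting is not stated, and overlapping and antisense genes cannot be told apart. The gene models behind the deposited RPKM are also not given, and 5.85% of the recovered gene lengths equalled the GENCODE M21 exon union.

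The low values gave back whole reads for all 22233 genes above 0 (100% within 0.02 reads), which is the source of the depths. Intervals from depth would cover counting error only. Genes with at least 1 RPKM in at least 2 libraries (16731) were fitted as log2(RPKM + 1) in limma 3.58.1 (R 4.3.3), with 1 mean per population and zone over all 56 libraries, 28 residual degrees of freedom, an abundance trend, 2-sided tests and Benjamini-Hochberg adjustment over all genes tested. The pooled contrast was called at an adjusted p under 0.05 and a difference of at least 1. The scripts were tested on simulated data. Promoters are RefSeq sequences (GRCm38.p6). A few genes that the rule named are not reported here. The table held 0 columns of other samples.

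The comparison, the member rule and the gene lists were chosen with earlier results of these data known. Named genes were the reporter genes, 15 leading genes per direction (same sign in all 32 pairs, at least 10 RPKM in both higher populations, ranked by the smallest difference), and up to 4 members per list, plus listed genes that did not pass. Col4a1, Lhx2, Msx2, Pparg, Sox13, Tgm5 and Top2a were named after their values were seen, as were the genes of the genomic runs and those at the edge of the rule. Alternatives covered the pseudocount, the filter, the scaling, the abundance trend, the libraries fitted, voom on recovered reads, the averaging of zones, the minimum difference, a replicate block, and leaving out each library or replicate number.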

Additional observations from a re-analysis of the deposited data

Results flagged for a closer look

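In 33 of the 380 sets of 8 libraries tested (named gene by population), 1 library stood apart from the other 7 on the log2(RPKM + 1) scale by Dixon's criterion. Chance flags about 1 in 20 such sets. The values below are the RPKM of the single library.

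Zone 1 replicate 2 of Foll stood apart in 4 named genes, all of them toward the stem cell level. It was low for Acsbg1 (46.4 RPKM) and Egr1 (286.5) and high for the melanocyte genes Kit (4.10) and Tyrp1 (3.62). It was also the Foll library closest to HGSC.

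Libraries of BuSC supplied most of the others. Zone 4 replicate 1 was high for Bmp3 (1.47), Bmp4 (69.4), Fn1 (147), Sema3f (3.69) and Wnt3a (0.438). Zone 4 replicate 2 was high for Fgfr1 (86.9) and Serpinb2 (5.22). Zone 3 replicate 2 was high for Ankrd35 (6.71) and Ccne2 (26.6) and low for Ccn1 (19.97). Zone 2 replicate 2 was high for Gdpd2 (2.62), Krt78 (0.647) and Tmprss4 (0.417). Zone 1 replicate 2 was high for Igfbp2 (1.96) and low for Cdkn1a (3.71) and Tcf7l1 (4.72). Zone 1 replicate 1 was high for Klk8 (0.555) and low for Fam25a (1.598).

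In HGSC, zone 3 replicate 2 was high for Smad7 (28.3), zone 3 replicate 1 was low for Gli2 (27.9), zone 2 replicate 1 was high for Ccnb2 (365) and zone 1 replicate 2 was high for Pdzrn3 (42.95). In Epi, zone 1 replicate 1 was high for Atf3 (268), Notch3 (36.6) and Serpinb2 (197.5), and zone 3 replicate 1 was low for Dll1 (3.14) and H2-D1 (85.3). In Foll, zone 1 replicate 1 was low for Dgat2 (11.5) and zone 4 replicate 2 was high for Sema3f (29.8).

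The pooled difference varied among zones in 2 genes (limma F test, adjusted p = 0.0368 for both). For Igfbp3, an insulin-like growth factor carrier, the difference on the log2(RPKM + 1) scale was -3.38 in zone 1, -3.03 in zone 2, -2.74 in zone 3 and -1.25 in zone 4. For Odc1, the first enzyme of polyamine synthesis, it was 0.32, 1.55, 2.14 and 2.84 in the same order. Neither gene was a member, and zone and batch cannot be told apart.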

How the results depend on the processing

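Among the 302 higher and 422 lower members, leaving out 1 library at a time gave 249 to 345 higher and 374 to 453 lower genes, and with whole replicate numbers left out as well the ranges were 52 to 345 and 198 to 453. The higher count was 164 without replicate 1 and 52 without replicate 2. Without replicate 2 the stem cell transcription factors and the cell cycle genes gave 2 members each and the hedgehog genes 1. That fit has 28 libraries and a model of population plus zone. A pseudocount of 5 gave 95 higher and 207 lower members, and a minimum difference of 2 gave 10 and 127. No minimum gave 555 higher, and 199 higher were left without genes above the lower stem cell mean in DP, DF or Neg. Quantile scaling gave 233 higher and 442 lower, median-of-ratios scaling 217 and 452, and the 32 keratinocyte libraries alone 215 and 346. These settings kept 74.8%, 71.9% and 71.2% of the 302 higher members, in the same order. The pooled contrast called 2639 higher at a pseudocount of 0.1, 458 higher and 479 lower at 5, and 2743 higher and 1495 lower by voom on recovered reads. The cause was not tested. Zone dependence was called in 6 genes at a pseudocount of 0.1, 1 under median-of-ratios scaling, 11 in the 32 keratinocyte libraries alone and 422 without the 4 libraries closest to another population. No named member reversed in any of 46 settings. Of the 96 named members, 67 kept their call in every setting but the loss of a whole replicate number, and 19 lost it at a pseudocount of 5.

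Same-numbered libraries of different populations showed little shared deviation (24 pairs, correlations -0.028 to 0.078, none over 0.1), and no pairing was used. These deviations also hold the noise of single libraries, so they cannot show whether same-numbered libraries share an animal. A replicate block gave 302 higher and 427 lower members. With zones averaged within each replicate, the rule gave 224 higher and 333 lower genes. Amplified RNA and libraries as small as 3.24 M reads limit what low genes show.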
